A study of Mus musculus with 2 samples.

Results

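The replication-dependent histone genes were described in the mouse uterus. Members were all genes whose symbol starts with Hist in the deposited expression table, which gave 68 of the 22740 genes listed. They fall into 6 H1, 18 H2A, 19 H2B, 12 H3 and 13 H4 genes by histone type. By genomic cluster, 54 belong to Hist1 on chromosome 13, 10 to Hist2 on chromosome 3, 3 to Hist3 on chromosome 11 and 1, Hist4h4, stands alone on chromosome 6. RNA came from the whole uterus of 2 independent C57BL/6 mice, labelled WT, on day 4 of pregnancy, and each animal gave 1 poly-A-selected library, called uterus 1 and uterus 2 here. No treatment or second group was part of the series, so every comparison is between genes or between these 2 animals. Values are the authors' RPKM, reads scaled to gene length and to library size, and a whole uterus mixes epithelium, stroma, muscle and blood cells, so that fewer cells of a type and less RNA per cell cannot be told apart.

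Histones are the proteins around which DNA is wrapped. H2A, H2B, H3 and H4 form the core of the nucleosome, and H1 is the linker histone that binds where DNA enters and leaves it. The replication-dependent genes are transcribed mainly in S phase, when new DNA must be packaged, and most lack introns. Their mRNAs are the known exception to polyadenylation: cleavage after a conserved stem-loop in the 3′ end, bound by the protein SLBP, usually leaves the mRNA without a poly-A tail. In the uterus before implantation, cell division follows the ovarian hormones, oestrogen first in the epithelium and then progesterone with oestrogen in the stroma.

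The stem-loop was searched for in the 200 bases after each stop codon, on mouse build mm9 (NCBIM37), because it marks these genes at the sequence level and decides where an mRNA ends. It was found in 65 of the 68 members, 21 to 58 bases after the stop codon with a median of 30. The same search found it in 4 of 19276 other genes (0.0208%). Below are 26 bases, 5′ to 3′, around the match in 8 members, 1 for each distinct form of the 16-base core, which is in capitals.
Hist1h1c: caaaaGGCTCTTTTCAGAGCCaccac
Hist1h2bb: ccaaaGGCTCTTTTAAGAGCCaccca
Hist2h2ac: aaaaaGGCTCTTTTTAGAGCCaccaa
Hist1h3g: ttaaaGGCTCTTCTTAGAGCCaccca
Hist1h4d: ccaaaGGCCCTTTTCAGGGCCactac
Hist1h4i: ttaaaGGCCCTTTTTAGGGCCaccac
Hist1h4b: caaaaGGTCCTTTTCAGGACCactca
Hist1h4a: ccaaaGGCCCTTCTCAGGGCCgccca

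These lie at chr13:23831376-23831401 on the plus strand (Hist1h1c), chr13:23839067-23839092 plus (Hist1h2bb), chr3:96024336-96024361 minus (Hist2h2ac) and chr13:23627753-23627778 plus (Hist1h3g). The H4 examples lie at chr13:23673814-23673839 plus (Hist1h4d), chr13:22132830-22132855 minus (Hist1h4i), chr13:23849230-23849255 plus (Hist1h4b) and chr13:23852664-23852689 minus (Hist1h4a). The core separated the H4 genes from the others. All 13 H4 cores began GGCCC (11 genes) or GGTCC (2 genes), and all 52 cores of the other types began GGCTC. The form printed for Hist1h1c was the most common, with 41 members across H1, H2A, H2B and H3, and the form of Hist1h4d was that of 8 of the 13 H4 genes. No match was found for Hist2h2be, Hist1h2an and Hist1h2bp.

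Most histone genes were detected in both uteri. Of the 68 members, 54 (79.4%) reached 1 RPKM in both animals, against 58.4% of all genes. Both animals reached 10 RPKM for 48 members (70.6%, against 30.4% of all genes) and 100 RPKM for 8 members (11.8%, against 1.92%). The median member stood at 28.32 RPKM in uterus 1 and 24.30 in uterus 2 (26.3 ± 2.84, SD, n = 2), and the median of all genes at 3.285 and 3.227. The members together held 0.772% and 0.697% of the summed RPKM, from 7055 and 6971 recovered reads. Those reads were 0.197% and 0.175% of all recovered reads, a share that is not scaled to gene length. Members above 0 had a median of 65 reads in uterus 1 and 67.5 in uterus 2, against 107 and 117 for all genes whose mean reached 1 RPKM. The order of the members was alike in the animals: across the 58 members above 0, log2 RPKM in uterus 1 and in uterus 2 gave r = 0.976 and rho = 0.978, a description across genes that share 2 libraries.

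**Figure D1:**
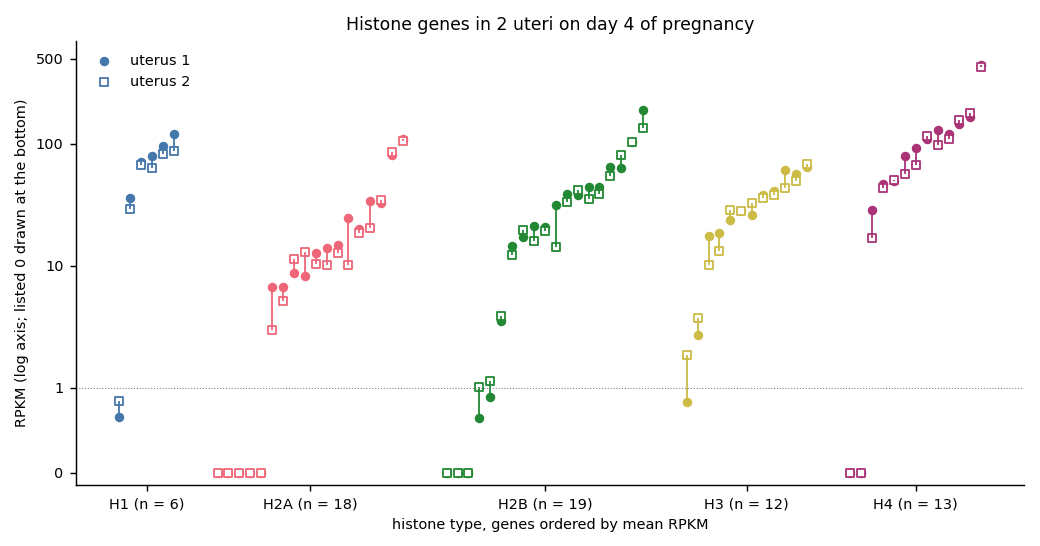
RPKM of each histone gene in uterus 1 and uterus 2 by histone type, on a log axis with genes listed at 0 drawn at the bottom. H4 genes reach highest, led by Hist1h4d at 443.9 and 429.2 RPKM, and 10 genes are at 0 in both uteri.

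H4, a core histone, was the most abundant type on the RPKM scale. H4 genes held 43.9% ± 1.04 (SD, n = 2) of the summed histone RPKM, with a median gene at 91.43 RPKM in uterus 1 and 66.84 in uterus 2. Hist1h4d stood at 443.9 and 429.2 RPKM, rank 110 of all genes, and alone supplied 13.6% and 14.5% of the summed histone RPKM. Hist1h4d is NM_175654 at chr13:23673471-23673782, a listing of 312 bases that holds only the coding sequence. Far below it came Hist1h4h at 165.9 and 177.9 RPKM and Hist1h4c at 145.5 and 155.9 RPKM, whose values overlapped with neither Hist1h4d nor each other. Hist1h4a followed at 119.5 and 109.9 RPKM, and its range lay within that of Hist1h4f, at 128.7 and 97.15. The other H4 genes above 0 ran from Hist4h4, at 28.54 and 16.73 RPKM, up to Hist1h4k, at 108.7 and 115.2.

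H2B genes held 21% ± 0.435 (SD, n = 2) of the summed histone RPKM and were led by a gene outside the main cluster. Hist2h2bb on chromosome 3 stood at 187.8 RPKM in uterus 1 and 135.4 in uterus 2. Hist1h2bb followed at 104.2 and 103.9 RPKM, nearly equal in the animals, then Hist1h2bc at 62.70 and 81.01 and Hist1h2bk at 65.03 and 54.88. Hist1h2bc and Hist1h2bk overlapped in their ranges. The median H2B gene stood at 21.22 and 19.10 RPKM, a mean of 20.16 that was lower in the sets with less shared sequence given in the next paragraph. Without the genes at 0 it rose by construction to 30.53, above the 28.81 of H3.

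H2A genes held 11.5% ± 0.0341 (SD, n = 2), a share that differed from those of H3 and H1 by less than the spread of the H1 share between the uteri. Their median was the lowest of the 5 types, at 10.61 RPKM in uterus 1 and 10.25 in uterus 2. Without members whose sequence mostly occurs elsewhere in the genome, the mean of the uteri's medians was 9.487 over the 5 H2A genes left and 8.524 over the 12 H2B genes left, of which 5 are spliced listings that were not scanned for shared sequence. Over the 7 scanned H2B genes it was 3.673, so that H2B was the lower in either set. A pair of genes stood out: Hist1h2ak at 109.5 and 105.8 RPKM, and Hist2h2ac at 81.59 and 84.95. Next came Hist1h2ai at 32.52 and 34.68 RPKM and Hist1h2ab at 34.02 and 20.43. The other H2A genes with reads lay lower, and 5 of the 18 were listed at 0.

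H3 genes held 11.8% ± 0.227 (SD, n = 2), with a median gene at 26.99 RPKM in uterus 1 and 30.63 in uterus 2. None of the 12 was listed at 0 and none reached 100 RPKM. Hist1h3f led at 64.75 RPKM in uterus 1 and 67.93 in uterus 2, followed by Hist1h3b at 56.48 and 49.16, Hist1h3c at 60.86 and 43.08 and Hist1h3d at 41.25 and 38.30. The ranges of Hist1h3b and Hist1h3c overlapped. H3 genes of the Hist2 cluster were low, with Hist2h3b at 18.40 and 13.15 RPKM, Hist2h3c1 at 2.715 and 3.734 and Hist2h3c2 at 0.7671 and 1.843.

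H1 genes, the linker histones, held 11.8% ± 0.863 (SD, n = 2) of the summed RPKM. Hist1h1b led at 120.3 RPKM in uterus 1 and 86.71 in uterus 2, and Hist1h1a followed at 96.71 and 81.78. Hist1h1c stood at 79.03 and 63.52 RPKM and Hist1h1e at 70.77 and 67.29, and their ranges overlapped. Hist1h1d was lower, at 35.66 and 29.28 RPKM. Hist1h1t, the linker histone of spermatocytes, was at 0.5720 and 0.7729 RPKM, from 2 and 3 reads. H1 listings are long for histone genes, and counted by recovered reads, which are not scaled to length, H1 held 27.4% and H4 30.2% of the histone total.

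Median levels were highest in Hist1. The median Hist1 gene stood at 34.84 RPKM in uterus 1 and 32.90 in uterus 2, the median Hist2 gene at 6.057 and 7.609 and the median of the 3 Hist3 genes at 0.8413 and 1.137. Without members at 0 the mean of the uteri's medians was 38.54 for Hist1 and 12.88 for Hist2. Without members mostly found elsewhere it was 35.01 and 9.993. Hist3h2a, at 19.92 and 18.54 RPKM, was the only Hist3 gene above 2 RPKM. Hist3h2ba was at 0.8413 and 1.137 RPKM and Hist3h2bb-ps, a pseudogene by its symbol, at 0.5609 and 1.011. Hist2 was uneven: Hist2h2bb, Hist2h2ac and Hist2h4 (91.43 and 66.84 RPKM) stood far above Hist2h2ab (8.627 and 11.36) and Hist2h2be (3.487 and 3.859).

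**Figure D2:**
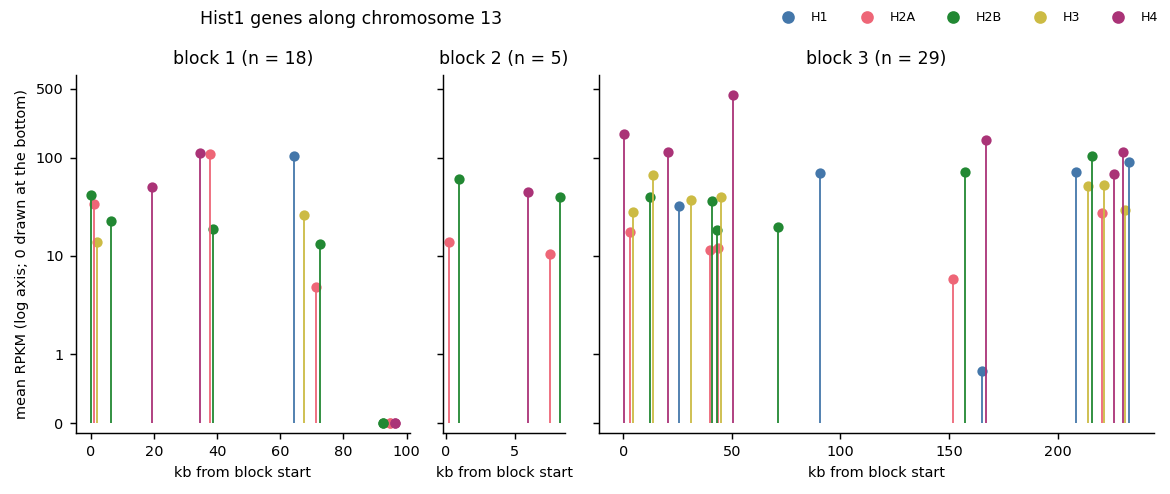
Mean RPKM of the Hist1 genes (log axis, 0 at the bottom) against distance in kb from the first gene of each block on chromosome 13, coloured by histone type. High and low genes lie side by side in blocks 1 to 3, and the genes at the right end of block 1 are at 0.

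Hist1 genes lay in blocks separated by more than 100 kb. Block 1 held 18 genes in 96.4 kb, with a median of 19.43 RPKM in uterus 1 and 13.22 in uterus 2, and 6 of its genes were at 0. Block 2 held 5 genes in 8.4 kb with a median of 37.65 and 41.93 RPKM. Block 3, with 29 genes in 233.4 kb, held all but 1 of the H1 genes and had a median of 44.50 and 38.30 RPKM. Genes within a few kb of each other differed widely. Hist1h4d, for example, lay in block 3 between Hist1h3d, at 41.25 and 38.30 RPKM, and Hist1h2be, at 20.57 and 19.10. Block 4 held only the testis genes Hist1h2aa and Hist1h2ba, which package chromatin in male germ cells, and both were at 0 in both uteri.

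Head-to-head neighbours, whose starts face away from a shared stretch of DNA, were unequal in level. There were 16 such combinations within 1000 bases, 15 of them H2A with H2B at 167 to 334 bases apart. In 10 of these both genes were above 0, and the H2B gene was the higher in both uteri in 7 and the H2A gene in 3. The ratio of H2B to H2A mean RPKM had a median of 2.15 and ran from 0.0409 to 12.2. The ends of that range were set by Hist3h2bb-ps beside Hist3h2a and by Hist1h2bc beside Hist1h2ac, the latter at 6.696 RPKM in uterus 1 and 5.089 in uterus 2. The H2B gene led in Hist1h2bk (65.03 and 54.88 RPKM) beside Hist1h2ah (14.83 and 12.75), in Hist1h2bj (37.65 and 41.93) beside Hist1h2ag (8.271 and 12.92) and in Hist1h2bg (38.59 and 33.24) beside Hist1h2ae (12.60 and 10.35). Smaller gaps in the same direction separated Hist1h2bp (14.49 and 12.26) from Hist1h2an (6.636 and 2.989), Hist1h2bl (44.50 and 38.85) from Hist1h2ai (32.52 and 34.68) and Hist1h2bf (17.11 and 19.73) from Hist1h2ad (13.94 and 10.16). The H2A gene led in Hist1h2ak, at 109.5 and 105.8 RPKM against 21.22 and 16.03 for Hist1h2bn, and in Hist2h2ac, at 81.59 and 84.95 against 3.487 and 3.859 for Hist2h2be. The remaining combination was H2B with H3, Hist1h2bh at 44.50 and 35.15 RPKM and Hist1h3f at 64.75 and 67.93. The listings of a pair differ in length and in how much of their sequence occurs elsewhere, and the part of these in the ratio was not tested.

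The DNA before the starts also differed by type. RefSeq promoters (build GRCm38.p6, 250 bases before to 50 after the start) were matched for 62 of the 68 members. Motifs were searched as plain letters on both strands: TATAAA, the TATA box; CCAAT, bound by NF-Y; and ATTTGCAT, the octamer bound by OCT1. CCAAT was found in all 50 promoters of H1, H2A, H2B and H3 genes but in 3 of 12 H4 promoters, against 37.9% of all 27025 promoters. TATAAA was found in 35 of 62 members (56.5%, against 14.2%). ATTTGCAT was found in 7 H2A and 6 H2B promoters and in no other type (21% of members, against 1.75%), and head-to-head genes share part of their windows. The 250 bases before the start are printed for the highest H4 gene and the highest H2B gene, 5′ to 3′, with these motifs on either strand in capitals.
Hist1h4d: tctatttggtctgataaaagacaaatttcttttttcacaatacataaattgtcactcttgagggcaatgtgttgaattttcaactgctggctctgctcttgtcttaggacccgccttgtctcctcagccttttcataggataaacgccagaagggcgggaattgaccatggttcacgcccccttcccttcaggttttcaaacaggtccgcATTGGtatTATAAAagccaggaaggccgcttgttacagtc
Hist2h2bb: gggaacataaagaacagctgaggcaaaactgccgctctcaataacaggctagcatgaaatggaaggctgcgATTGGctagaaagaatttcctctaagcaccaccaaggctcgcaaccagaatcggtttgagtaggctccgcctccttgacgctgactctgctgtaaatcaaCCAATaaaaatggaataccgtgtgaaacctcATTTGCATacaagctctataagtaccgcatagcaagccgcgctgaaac

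They lie at chr13:23581318-23581567 and chr3:96269450-96269699, both on the plus strand of GRCm38.p6. The window of Hist1h4d holds TATAAA and is 1 of the 3 H4 windows with CCAAT, and that of Hist2h2bb holds CCAAT and ATTTGCAT and no TATAAA. A match describes letters in a window and no binding was measured here.

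Most members were a little lower in uterus 2. Over the 55 members whose mean reached 1 RPKM, the median log2 ratio of uterus 2 to uterus 1, after adding 0.1 RPKM, was -0.12, and that of all 13647 genes past the same filter was 0.001. Of the 55, 37 were lower in uterus 2 (67.3%, against 49.9% of all genes) and 18 higher. The adding of 0.1 RPKM understates the difference of low genes. The median was -0.107 over the 58 members above 0 and -0.195 over those with a mean of 5 RPKM or more. Over all 68 it was -0.061, a value that includes the 10 members at 0, whose ratio is 0 by construction. By type the medians were -0.28 for H1, with 5 of 5 genes lower, -0.22 for H2A (9 of 13 lower), -0.20 for H2B (10 of 14), -0.11 for H4 (7 of 11) and -0.04 for H3 (6 of 12). By cluster the median was -0.195 for Hist1 (32 of 45 lower) and 0.10 for Hist2, where 3 genes were lower and 5 higher. The summed reads of Hist2 differed in sign from its median, with a log2 ratio of -0.26 (95% interval -0.42 to -0.11), and Hist2h2bb, lower in uterus 2, held 355 of its 698 reads in uterus 1. The reads of each type, summed and scaled to library size, gave log2 ratios of -0.25 for H1 (95% interval -0.34 to -0.16), -0.16 for H2A (-0.30 to -0.01), -0.14 for H2B (-0.25 to -0.03), -0.16 for H4 (-0.25 to -0.07) and -0.05 for H3 (-0.19 to 0.09). Single genes carried part of these sums. Without the members called in the test described next, the ratio was -0.18 for H1 (-0.295 to -0.062), -0.005 for H2B (-0.13 to 0.12), -0.07 for H4 (-0.17 to 0.02) and -0.07 for Hist2 (-0.29 to 0.14), and over all members it went from -0.17 (-0.22 to -0.12) to -0.09 (-0.145 to -0.038). The called members were all lower in uterus 2 and were picked on the same reads. Leaving them out thus raises the ratios by construction, and the intervals without them are no test of a difference. All intervals are Clopper-Pearson and cover counting error only. The type intervals overlap, and no test between types was run.

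**Figure D3:**
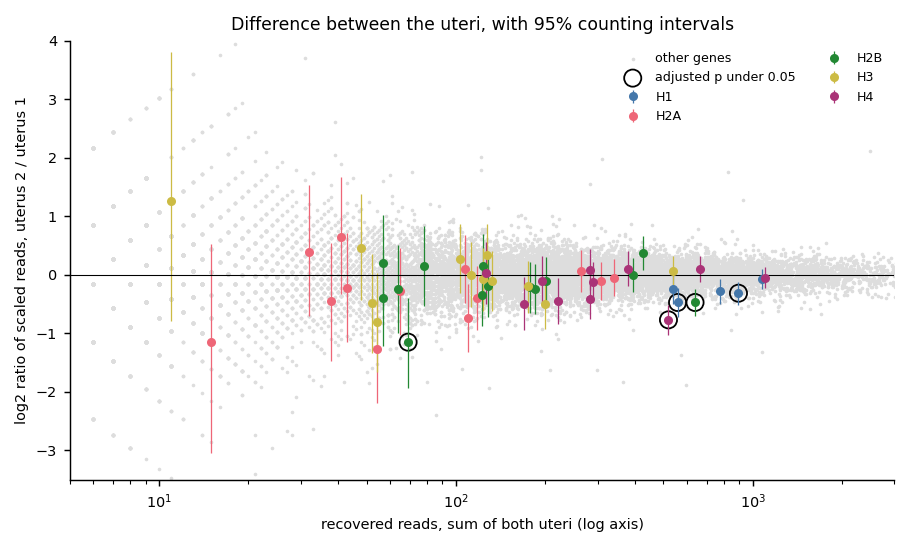
Log2 ratio of uterus 2 to uterus 1 against reads in both uteri (log axis) for the histone genes, with 95% counting intervals, over all other genes in grey. Most histone genes sit just below 0, and the 5 called genes are all lower in uterus 2.

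Counted by recovered reads, 5 of the 55 members with at least 6 reads differed between these 2 libraries, all lower in uterus 2 (9.09%). Over all 15034 genes tested, 4.12% differed in either direction, 2.20% lower and 1.92% higher. The test was a two-sided exact binomial test on the reads with Benjamini-Hochberg adjustment over all genes tested; it compares 2 libraries and not conditions. Hist4h4, the lone H4 gene of chromosome 6, was lower, with 315 reads in uterus 1 (28.54 RPKM) and 205 in uterus 2 (16.73), a log2 read ratio of -0.77 (95% interval -1.03 to -0.51; adjusted p = 3.06e-07, exact binomial test). Hist2h2bb had 355 and 284 reads (adjusted p = 0.00210, exact binomial test). Hist1h1b had 310 and 248 reads (adjusted p = 0.00599, exact binomial test), and it missed the threshold, at 0.118, when the smallest possible reads were used. The remaining members called were Hist1h1c, with 473 and 422 reads (adjusted p = 0.0319, exact binomial test), and Hist1h2bm, with 46 and 23 (adjusted p = 0.0402, exact binomial test). At an unadjusted p under 0.05 there were 13 members (23.6%, against 14.6% of all genes tested). Of these, 12 were lower in uterus 2 (21.8%, against 7.46%) and 1 was higher (1.82%, against 7.17%). The higher gene was Hist1h2bc, with 175 and 251 reads (adjusted p = 0.140, exact binomial test).

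Only 4 of the 55 members were at least 2-fold apart (7.27%, against 2.60% of all genes). Hist1h2bm (31.49 and 14.18 RPKM), Hist1h2af (24.55 and 10.16) and Hist1h2an (6.636 and 2.989) were lower in uterus 2, against 1.42% of all genes in that direction. Hist2h3c2 was higher, from 3 and 8 reads, against 1.18% of all genes. These are genes of few reads: Hist1h2af had 37 and 17, and Hist1h2an 10 and 5, and of the 4 only Hist1h2bm passed the test above. The count was 2 with a pseudocount of 1 RPKM and 2 among members with a mean of 10 RPKM or more. The next largest differences toward uterus 1 stayed below 2-fold, with log2 ratios of -0.797 for Hist1h3h, -0.767 for Hist4h4 and -0.733 for Hist1h2ab. Hist1h3h stood at 17.64 and 10.11 RPKM and Hist1h2ab at 34.02 and 20.43, and of the genes in this group only Hist4h4, described above, passed. Toward uterus 2, Hist1h2ag came after Hist2h3c2, at 8.271 and 12.92 RPKM, and did not pass. Hist1h4d, with 531 and 570 reads, gave an adjusted p of 0.920 in the exact binomial test.

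Markers of cell types were not level between the animals. Summed RPKM of the 4 epithelial markers (Krt8, Krt18, Epcam, Cdh1) was 192.6 in uterus 1 and 231.2 in uterus 2, with 3 of 4 higher. That of the 3 leukocyte markers was 20.17 and 25.42 (2 of 3 higher), and that of the 4 uterine markers (Pgr, Esr1, Hoxa10, Hoxa11) 375.2 and 351.2 (3 of 4 lower). Stromal markers summed to 3539 and 3311, of which Col1a1 alone of the 3 was lower, at 1184 and 850.7. Smooth muscle markers summed to 1182 and 1161, of which Acta2 alone was lower, at 652.6 and 591.9, while Myh11 was higher, at 313.7 and 350.1. Ovary and oviduct markers were low and 3 of 4 were higher in uterus 2 (sums 10.50 and 15.91), with Cyp19a1 at 0, and blastocyst and fat markers did not reach 1 RPKM in both, with Cdx2 and Adipoq at 0. The part of cell composition in the histone difference was not tested.

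Genes that act with these histones were read from fixed lists. The replication genes, which copy the DNA that histones package, were mostly a little lower in uterus 2 as well, 11 of 14 by sign, with a median log2 ratio of -0.15 and summed reads at -0.13 (95% interval -0.203 to -0.055). None passed the exact binomial test, against 4.12% of all genes tested, a share that gives few or no calls in lists as short as these. Pcna, the sliding clamp, stood at 75.14 RPKM in uterus 1 and 71.61 in uterus 2, and Mcm3, a subunit of the replicative helicase, at 24.94 and 19.62. The 8 mitosis genes were split, 4 lower and 4 higher, with Mki67 at 29.87 and 29.22 and Top2a at 57.99 and 63.82, and none passed. All 14 replication and all 8 mitosis genes were at 1 RPKM or more in both uteri.

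**Figure D4:**
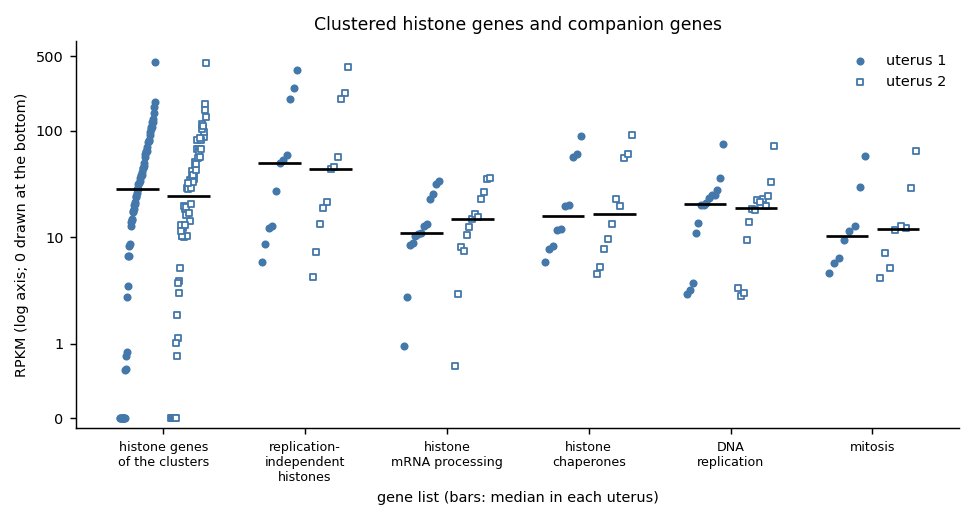
RPKM (log axis) of the genes in each companion list in uterus 1 and uterus 2. Replication-independent histones reach highest, led by H3f3a at 367.9 and 396.3 RPKM, and their median lies above that of the replication-dependent members.

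The genes listed as replication-independent histones were all detected (11 of 11). Their median, the level of H2afx, was 49.90 RPKM in uterus 1 and 43.91 in uterus 2. H3f3a, which encodes H3.3, stood at 367.9 and 396.3 RPKM, and H2afz, which encodes H2A.Z, at 254.3 and 228.3. Cenpa, the centromere H3, was lower at 8.583 and 7.205. Of the 11, 7 were lower in uterus 2 and none passed the exact binomial test. The list named histone mRNA processing, which also holds Eri1, Upf1 and Lsm1, had a median of 10.86 and 14.93 RPKM, with 12 of 13 detected. Of the 12 whose mean reached 1 RPKM, 10 were higher in uterus 2, and the summed reads of the list gave a log2 ratio of 0.12 (95% interval 0.04 to 0.20). Slbp, which binds the stem-loop printed above, stood at 31.66 and 35.01, Npat, the S-phase activator of histone genes, at 8.413 and 8.155, and Casp8ap2, needed for histone transcription and processing, at 10.23 and 10.43. Of these 13, only Cpsf2, a subunit of the cleavage complex, passed, against 4.12% of all genes, higher in uterus 2 with 262 and 377 reads (adjusted p = 0.0351, exact binomial test). Of the chaperones that carry histones to DNA all 10 were detected, at a median of 15.86 and 16.46 RPKM, with Nap1l1 highest at 88.49 and 91.82 and Chaf1b lowest at 5.862 and 4.544. By sign 7 of the 10 were lower in uterus 2, and none passed.

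The listings on which reads were counted differed in their 3′ ends. Of the 68, 32 held only the coding sequence, 16 ended within 100 bases of the stem-loop, 14 ran further past it, 5 were spliced and 1, Hist2h2be, had no stem-loop match and ran to 2618 bases. In the 32 coding-only listings the median level was 37.86 RPKM in uterus 1 and 35.58 in uterus 2, in the 16 that ended near the stem-loop 26.99 and 28.44, and in the 14 that ran past it 24.23 and 17.63. Longer listings had lower levels: across the 58 members above 0, level and listing length gave r = -0.322 and rho = -0.360 on the log2 scale, a description across genes of 2 libraries. RPKM is itself divided by length, so part of a negative relation is built in, and length also differed by histone type. The relation therefore cannot show a part of the 3′ ends in the levels. The poly-A signal AATAAA was found in the last 50 bases of 6 of the 14 long listings and ATTAAA in 3 more, and in the coding-only listings neither was found. Among other genes with an NM_ identifier, 56.8% had AATAAA there. Hist4h4 is among the long listings, at chr6:136750074-136752952, and so is Hist1h1c, at chr13:23830676-23832236. The Hist4h4 listing runs 2515 of its 2879 bases past the stop codon. Of its 50-base windows 17.3% occur elsewhere in the genome, in up to 819 copies. The part of this stretch in its difference between the uteri was not tested. The genes called above were spread over the listings, 2 of 12 tested among those that ran past the stem-loop, 2 of 27 among the coding-only ones and 1 of 12 among those that ended near it, against 4.12% of all genes. Poly-A selection of the libraries and the ends of the listings both bear on which histone reads could be counted, and the part of each in the levels was not tested.

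Near-identical copies limit what a value says about 1 gene. In 63 members scanned, the share of 50-base windows that also occur elsewhere in the genome had a median of 2.79% for H1, 52.9% for H2B, 57.4% for H4, 67.1% for H3 and 80.7% for H2A. In 37 of the 63 it was over 50%. Reads from such windows could be split between copies or dropped by the authors' counting, so levels of H2A, H2B, H3 and H4 genes are uncertain singly. Hist2h2bb, Hist1h1b, Hist1h1a and Hist1h1t had no shared window, and Hist1h4d had 42.2%, with none at 100 bases. Across the 55 members above 0 with windows, the mean level on the log2 scale and the shared share gave r = 0.056 and rho = -0.094, a description across genes of 2 libraries.

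**Figure D5:**
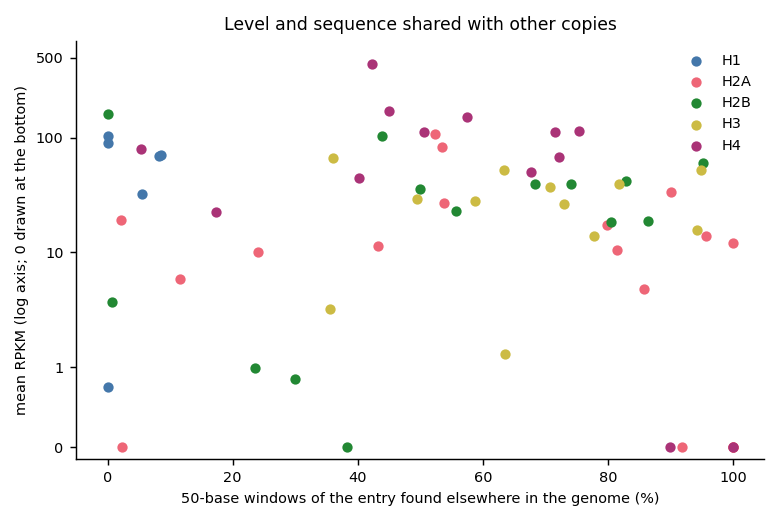
Mean RPKM (log axis, 0 at the bottom) against the percent of a gene's 50-base windows found elsewhere in the genome, by histone type. High and low genes occur across the whole range, and H1 genes lie at the left.

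Of the 68 members 10 (14.7%) were listed at 0 in both uteri, against 23.4% of all genes, and none was at 0 in only 1. Apart from the 2 testis genes, 6 were listings that overlap another histone listing on the same strand: Hist1h2ao with Hist1h2ap, Hist1h2bq with Hist1h2br and Hist1h4m with Hist1h4n. The other two, Hist2h2aa1 and Hist2h2aa2, are copies of which 100% and 91.8% of the 50-base windows occur elsewhere. Hist1h2ad, with 100% of its windows elsewhere, was at 13.94 RPKM in uterus 1 and 10.16 in uterus 2. Hist1h2be and Hist1h1e also overlap each other on the same strand and were above 0. Hist1h2be stood at 20.57 RPKM in uterus 1 and 19.10 in uterus 2, and Hist1h1e at 70.77 and 67.29. The part of overlap and of shared sequence in the values of 0 was not tested. For these 8 genes a value of 0 is a listing at 0, and whether the genes were transcribed was not tested.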

How the data were processed

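RNA sequencing of 2 whole uteri was described. Per the labels, the authors normalized expression to RPKM, and the submitters' processing notes name TopHat, edgeR and genome build mm9, with no role for each. The annotation release, the strand setting and the handling of reads with several matches are not given in the sources used here. All deposited RPKM columns were used, and the 2 deposited tables hold identical values for shared genes.

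Whole reads were recovered from the deposited RPKM: each pair of values was matched to a ratio of whole reads to gene length (relative tolerance 1e-09), with scaling totals of 3834174 and 4256101. All 17426 genes above 0 matched, but a match of this kind does not by itself show that the reads are right. Of 583 single-exon genes above 0, 550 (94.3%) gave whole reads at their listed span. A factor common to both reads was chosen from gene lengths, and for spliced Hist1h2bc, Hist1h2be and Hist1h2bp no length decided it and the lowest numbers were taken. The sums were 3586044 and 3986028 reads. The steps were tested on simulated data.

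Genes with 6 or more reads over both libraries entered a two-sided exact binomial test, with Benjamini-Hochberg adjustment over all 15034 genes tested and a threshold of 0.05. This test holds counting error only, not the spread between animals, and PCR copies are not independent molecules. Deposited starts count from 0 and are given here counted from 1. Copies and stem-loops were searched in NCBIM37, with GENCODE M1 coding regions. Python 3.11.15, numpy 2.4.6, pandas 2.3.3, scipy 1.17.1 and matplotlib 3.10.9 were used.

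All histone genes could be named: with both values, the 4 highest of each type, every Hist2, Hist3 and Hist4 gene, the 5 largest ratios in each direction, head-to-head pairs and testis genes. Some others were named for a point made in the text, after their values were seen. The members and lists were chosen with earlier results of these data known. Supt16h of the chaperone list was not analysed here. Alternatives were other pseudocounts, filters and detection thresholds, the TPM scale, shares by reads, leaving out members at 0 or mostly found elsewhere, and leaving out each uterus.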

Additional observations from a re-analysis of the deposited data

How the results depend on the processing

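No alternative run changed the sign of the median log2 ratio, but orders of types did turn. H2B fell below H2A in median level without members mostly found elsewhere, and H1 passed H2B in share by reads. Without members at 0, the H2B median of 30.53 RPKM passed that of H3, which stayed at 28.81. With 2 uteri, leaving out either could not move a level or share past the spread between them, so it says nothing of stability. On the TPM scale, which rescales all genes alike, the median level was 62.26 over all members, 166.0 for H1, 24.69 for H2A, 47.70 for H2B, 68.16 for H3, 187.3 for H4, 80.14 for Hist1 and 16.16 for Hist2. The companion lists stood there at 111.0 for replication-independent histones, 30.49 for mRNA processing, 38.24 for chaperones, 46.69 for replication and 26.48 for mitosis. Without members at 0, medians rose by construction to 35.31 RPKM over all members, 13.79 for H2A, 30.53 for H2B, 102.9 for H4, 38.54 for Hist1 and 12.88 for Hist2. Without members mostly found elsewhere they were 22.49 over all members, 9.487 for H2A, 8.524 for H2B and 9.993 for Hist2. With the 5 unscanned members left out too, they were 31.51 over all members, 3.673 for H2B and 44.97 for Hist1. The cause was not tested. The median log2 ratio was -0.061 with no filter on low values, which brings in the members at 0, -0.107 without those and -0.195 with a filter at 5 or 10 RPKM, all below 0. The count of members 2-fold apart was 2 with a pseudocount of 1 and 2 with a filter at 10 RPKM. Shares by recovered reads, which carry gene length, were 27.4% for H1, 11.0% for H2A, 19.5% for H2B and 30.2% for H4. The set without unscanned members was chosen after seeing the data, as were the median without members at 0, the summed reads without called members (given with the results) and 3 more alternatives: leaving out the 5 called members gave a median log2 ratio of -0.106, summed reads gave -0.168, and with the smallest possible reads 4 members were called and 581 of 14896 genes in all. No paired analysis was possible because the series has 1 group. With 2 animals and a median of 65 and 67.5 reads for members above 0, depth limits what the ratio of a single gene shows.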
